A study of Mus musculus with 8 samples.

Results

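The genes described here are the matrix metalloproteases (Mmp), the ADAMTS proteases (Adamts), the ADAMTS-like proteins (Adamtsl) and the tissue inhibitors of metalloproteases (Timp) in primary mouse embryonic fibroblasts. They were chosen by name alone, as every gene whose symbol is Mmp, Timp, Adamts or Adamtsl followed directly by a number, which gave 51 of the 24972 genes in the table (23 Mmp, 4 Timp, 19 Adamts and 5 Adamtsl). The fibroblasts were grown from embryos at embryonic day 14, passaged 2 times, and left untreated, and total RNA was sequenced in 8 libraries of 4 genotypes with 2 libraries each. WT cells carried neither mutation. Tfam+/- cells were heterozygous for Tfam, which encodes the protein that packages and transcribes mitochondrial DNA. Zbp1-/- cells lacked Zbp1, a sensor of Z-form nucleic acids, and Tfam+/-Zbp1-/- cells carried both changes. No source used here says whether libraries of the same genotype were made from different embryos, so the p-values measure only the spread between these libraries, which may be technical.

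Matrix metalloproteases are zinc proteases that are secreted or anchored to the cell surface as inactive precursors and that cut collagens, gelatin, elastin and other matrix proteins once activated. ADAMTS proteases carry thrombospondin repeats and cut proteoglycans, procollagens and other matrix proteins, while the ADAMTS-like proteins share those repeats but lack the protease domain. TIMPs bind the active site of these enzymes, and fibroblasts are a main source of both the proteases and their inhibitors in connective tissue.

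Several of the secreted Mmp genes lie side by side on mouse chromosome 9. In the RefSeq annotation of GRCm38.p6, 10 members stand between positions 7272514 and 7699585, in the order Mmp13, Mmp12, Mmp1b, Mmp3, Mmp1a, Mmp10, Mmp8, Mmp27, Mmp20 and Mmp7, and Mmp3, Mmp10, Mmp12 and Mmp13 were expressed in these cells. The promoters of Mmp3, Mmp10 and Mmp13 are shown because they are well-studied targets of AP-1, the Fos and Jun transcription factor, and because Mmp3 and Mmp13 changed between genotypes. Each sequence is the 250 bases before the RefSeq start, 5′ to 3′ on the plus strand, with matches to the AP-1 motif TGANTCA and to the TATA motif TATAAA in capitals; the stretches lie at chr9:7445572-7445821 for Mmp3, chr9:7502092-7502341 for Mmp10 and chr9:7272264-7272513 for Mmp13.
Mmp3: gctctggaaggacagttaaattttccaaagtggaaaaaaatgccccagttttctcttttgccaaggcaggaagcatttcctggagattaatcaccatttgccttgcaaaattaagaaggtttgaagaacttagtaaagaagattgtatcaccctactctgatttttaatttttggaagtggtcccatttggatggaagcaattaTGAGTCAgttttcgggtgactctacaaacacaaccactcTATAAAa
Mmp10: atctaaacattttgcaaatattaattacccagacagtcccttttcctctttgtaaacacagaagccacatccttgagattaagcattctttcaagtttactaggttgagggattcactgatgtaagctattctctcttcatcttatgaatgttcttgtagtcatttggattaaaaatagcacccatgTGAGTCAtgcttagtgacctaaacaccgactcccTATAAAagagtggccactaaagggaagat
Mmp13: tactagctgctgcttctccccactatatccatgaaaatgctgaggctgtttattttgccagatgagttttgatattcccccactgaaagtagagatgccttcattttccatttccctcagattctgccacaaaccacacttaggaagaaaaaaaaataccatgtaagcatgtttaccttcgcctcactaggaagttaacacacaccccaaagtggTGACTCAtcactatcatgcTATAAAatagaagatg
The AP-1 match began 46 bases before the annotated start in Mmp3, 63 bases before it in Mmp10 and 35 bases before it in Mmp13. Searched on both strands over the same 250 bases, the AP-1 motif was found in 8 of the 10 genes of the chromosome 9 stretch and in 0 of the other 26 members in the promoter table. Across all 27025 genes of that table, 7.82% had a match. TATAAA was found in 7 of the 10 genes, in 3 of the other 26 members and in 14.3% of all genes. The interferon response motif (GAAA, any 2 bases, GAAA) was found in Mmp13 alone of the 36 members in the table, against 3.46% of all genes. A match describes these letters only, and 15 members had no entry in the table.

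Of the 51 members, 38 were expressed, meaning a mean of at least 10 normalized counts over the 8 libraries: 14 of 23 Mmp, 3 of 4 Timp, 16 of 19 Adamts and 5 of 5 Adamtsl genes. Another 12 were above 0 in at least 1 library but below that mean (Mmp1a, Mmp1b, Mmp7, Mmp8, Mmp21, Mmp24, Mmp25, Mmp27, Timp4, Adamts13, Adamts18 and Adamts19). Mmp20, the enamel metalloprotease, was listed at 0 in every library. The lowest mean among the expressed members was 14.8 for Adamts16 and the highest among the others was 9.30 for Adamts18. By role, the collagenases were represented by Mmp13 alone of 4, whereas all 7 proteoglycan-cleaving ADAMTS genes and all 3 procollagen N-proteinases were expressed. Adamts13, the protease of von Willebrand factor, was above 0 in 1 library at 2.13 normalized counts.

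Levels of different genes are compared here per length, as the normalized count per kb of the longest coding transcript. Mmp14, the membrane-anchored collagenase that activates the Mmp2 precursor, was highest with a mean of 6055 per kb over the 8 libraries. The inhibitors Timp2 (5184), Timp1 (3677) and Timp3 (3406) followed, then the gelatinase Mmp2 (2234) and the versican-cleaving protease Adamts1 (1317). Each gene's range over the 8 libraries overlapped that of the next gene in this order, as for Timp1 (2996 to 4880) and Timp3 (2381 to 4981). Within single libraries, Timp3 was above Mmp2 and Mmp2 above Adamts1 in all 8, whereas the order of each other pair of neighbours changed between libraries. Every other member had a mean of at most 340 per kb, the value of Adamtsl5. Mmp2 and Mmp14 together made up 85.2% to 88.4% of the per-kb sum of all Mmp genes in a library.

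**Figure D1:**
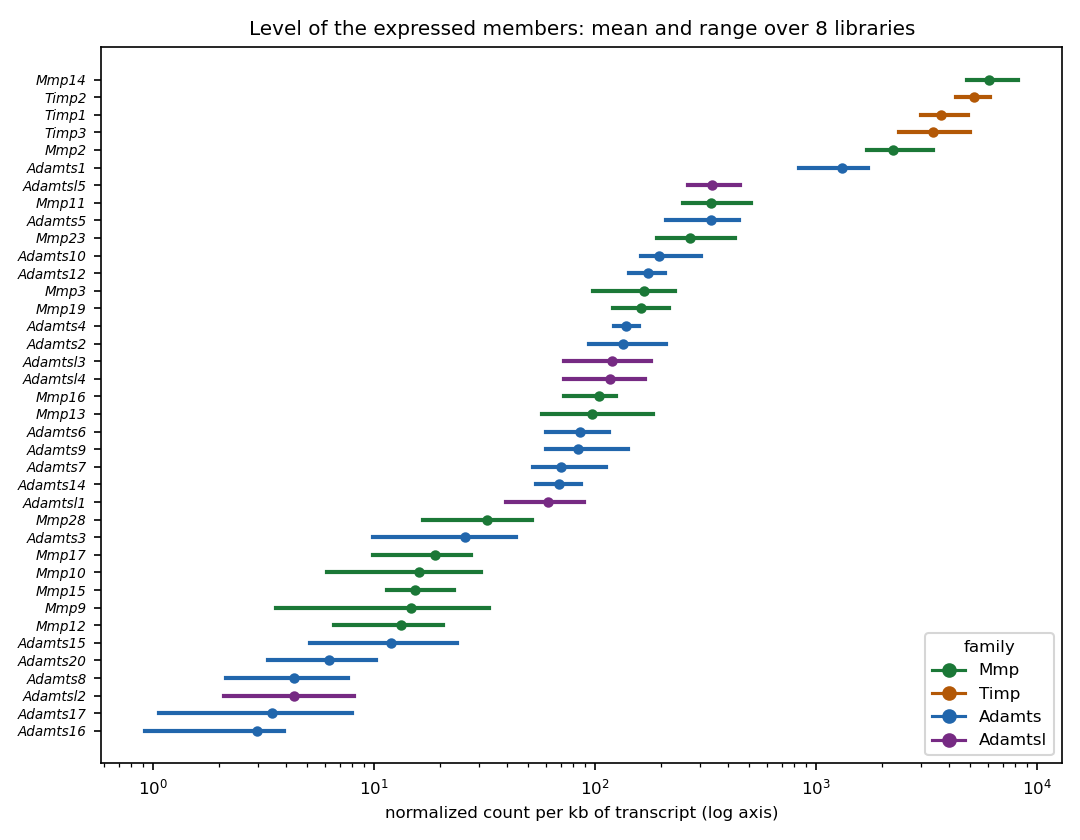
Normalized count per kb of transcript on a log axis for the 38 expressed members; points are means over the 8 libraries, bars run from the lowest to the highest library and colours mark the family. Mmp14, Timp2, Timp1, Timp3, Mmp2 and Adamts1 stand above all others.

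The libraries held 16752835 to 18303036 normalized counts, with 16051 to 16261 genes above 0. Tfam had normalized counts of 628.7 and 610.1 (WT), 277.8 and 364.7 (Tfam+/-), 675.0 and 470.9 (Zbp1-/-) and 423.8 and 374.6 (Tfam+/-Zbp1-/-). Zbp1 was at 3.19 to 7.34 in WT, 64.6 to 69.8 in Tfam+/- and 0.862 to 3.79 in the libraries labelled as lacking it, so at WT levels it separates the labels poorly. All 10 fibroblast markers were expressed, with a summed level of 343538 to 563382 normalized counts, and markers of other cell types were present in part. Of 6 endothelial markers 3 were expressed (Kdr, Tek and Emcn, not Pecam1, Cdh5 or Cldn5; sum 273 to 460), of 6 epithelial markers 3 (Krt8, Krt14 and Krt18, not Krt5, Epcam or Cdh1; sum 186 to 493) and of 6 skeletal muscle markers 2 (Des and Acta1, not Myod1, Myog, Myf5 or Ckm; sum 601 to 1758). Tfam+/- replicate 1 and Zbp1-/- replicate 2 departed from their partner libraries in the same direction over the 13267 genes tested (r = 0.70 across genes, which are not independent). A term for these 2 libraries passed the threshold in 23 of the 38 expressed members, against 65.3% of all genes. It was above 0 in 13 members, such as Mmp28 (0.71), Mmp11 (0.49) and Mmp2 (0.38), and below 0 in 10, such as Adamts5 (-0.63) and Mmp16 (-0.57), on the log2 scale; these were chosen after their values were seen. The sign of the departure was shared in 35 of 38 members. Results are therefore given from all 8 libraries and with that shared term, and counts of calls also from the other 6 libraries, where Tfam+/- and Zbp1-/- keep 1 library each, whose spread is assumed to be that of the other genotypes.

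**Figure D2:**
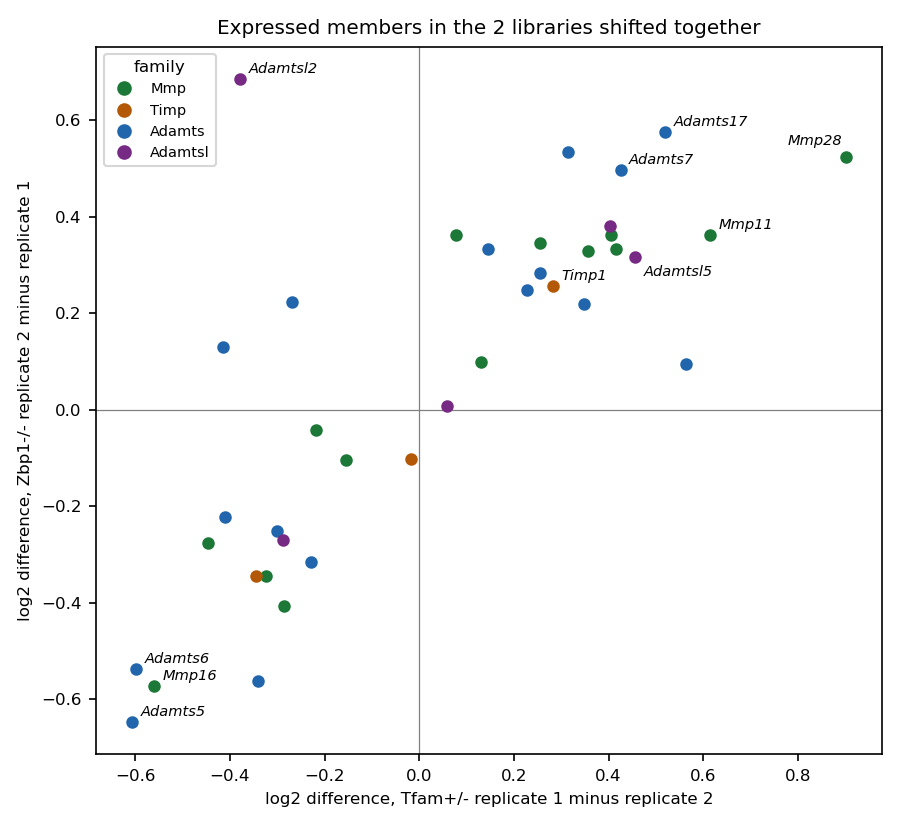
Each point is 1 of the 38 expressed members: the log2 difference between Tfam+/- replicates 1 and 2 on the x axis and between Zbp1-/- replicates 2 and 1 on the y axis, coloured by family. The points run along the diagonal, and 35 of the 38 have the same sign on both axes.

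The comparisons ask how the loss of a Tfam allele, the loss of Zbp1 and their combination alter the expression of these genes. With limma on log2(normalized count + 1), a difference is called here at an adjusted p under 0.05 over all 13267 genes tested. Of the 38 expressed members, 13 were called in at least 1 of 6 comparisons. In Tfam+/- against WT, 1 member rose and none fell, while 0.731% of all genes were called (0.565% higher, 0.166% lower). Zbp1-/- cells had 3 members higher than WT and none lower, against a background of 1.06% (0.897% and 0.166%). The Tfam+/-Zbp1-/- cells had 2 members higher and 1 lower than WT, against 1.38% (0.897% and 0.482%). Against Tfam+/-, the same cells had 7 higher and 1 lower, beside 5.64% of all genes (3.32% and 2.32%). Against Zbp1-/-, 1 member was lower and none higher, beside 0.415% (0.106% higher and 0.309% lower). The interaction compares the change on losing a Tfam allele without Zbp1 with the same change in its presence (the first minus the second). It was called below 0 for 1 member, beside 0.663% of all genes (0.219% above 0 and 0.445% below). At an unadjusted p under 0.05 the counts were 13, 25, 14, 14, 22 and 18 of 38 in the same order, beside 8.7%, 19.7%, 12.6%, 20.8% and 12.3% of all genes, and 2123 of 13267 genes for the interaction. An exact permutation test of 2 against 2 libraries cannot go below 0.333, so no such test is given.

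With the shared term, 18 of 38 members were called in Tfam+/- against WT, 5 higher and 13 lower, while 15.6% of all genes were (7.39% higher, 8.20% lower). Zbp1-/- against WT had 27 calls, 24 higher and 3 lower, beside 35.6% (28.5% and 7.01%). For Tfam+/-Zbp1-/- there were 24 calls against WT, 15 higher and 9 lower, beside 42.5% (35.3% and 7.19%). Against Tfam+/- there were 26, 17 higher and 9 lower, beside 45.6% (35.4% and 10.2%). Against Zbp1-/- there were 23, 3 higher and 20 lower, beside 23.8% (12.8% and 11.0%). The interaction was called for 18, 6 above 0 and 12 below, beside 16.9% (8.46% and 8.43%). In the other 6 libraries the counts were 15, 26, 25, 26, 24 and 18, against backgrounds of 15.4%, 34.3%, 44.8%, 43.6%, 23.4% and 19.1%. The term was built from a shift seen in these same libraries, and with it far more of all genes were called. It takes up the shared part of the difference between the 2 libraries of Tfam+/- and of Zbp1-/-. An SE or p-value given with the term therefore leaves that spread out. All 17 values called from 8 libraries were also called with the term, which is therefore no independent support for them.

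The expressed members were mostly above WT in Zbp1-/- cells: 29 of 38 had a log2 change above 0, with a median of 0.53 against 0.11 over all genes tested. Against those same Zbp1-/- libraries, 11 of 38 members were above 0 in Tfam+/-Zbp1-/- cells, with a median of -0.46 against 0.02; these 2 comparisons share the Zbp1-/- libraries. The median was -0.05 in Tfam+/- against WT (all genes -0.01), 0.02 in Tfam+/-Zbp1-/- against WT (0.12) and 0.12 against Tfam+/- (0.14). For the interaction it was -0.40 over the 38 members and -0.63 over the 14 Mmp genes, of which 1 was above 0 (Mmp16), against 0.00 over all genes. The interaction medians with the shared term were -0.23 over the 38 members and -0.42 over the Mmp genes, of which Mmp28 was above 0 and Mmp16 was not, against 0.02 over all genes. The members' medians with that term were 0.43 in Zbp1-/- against WT, -0.37 in Tfam+/-Zbp1-/- against Zbp1-/- and -0.10 in Tfam+/- against WT. Scaling the libraries anew to a trimmed mean of M-values (TMM) moved the median of all genes by over 0.1 in the 3 comparisons whose all-gene median was 0.11 to 0.14, to -0.01, 0.01 and 0.03. The members' medians then were 0.41 in Zbp1-/- against WT, -0.09 in Tfam+/-Zbp1-/- against WT, where the sign turned, and 0.01 against Tfam+/-. The share of higher calls over all genes went from 84.4% to 71.6%, from 65.0% to 48.3% and from 58.8% to 44.9% in these comparisons.

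**Figure D3:**
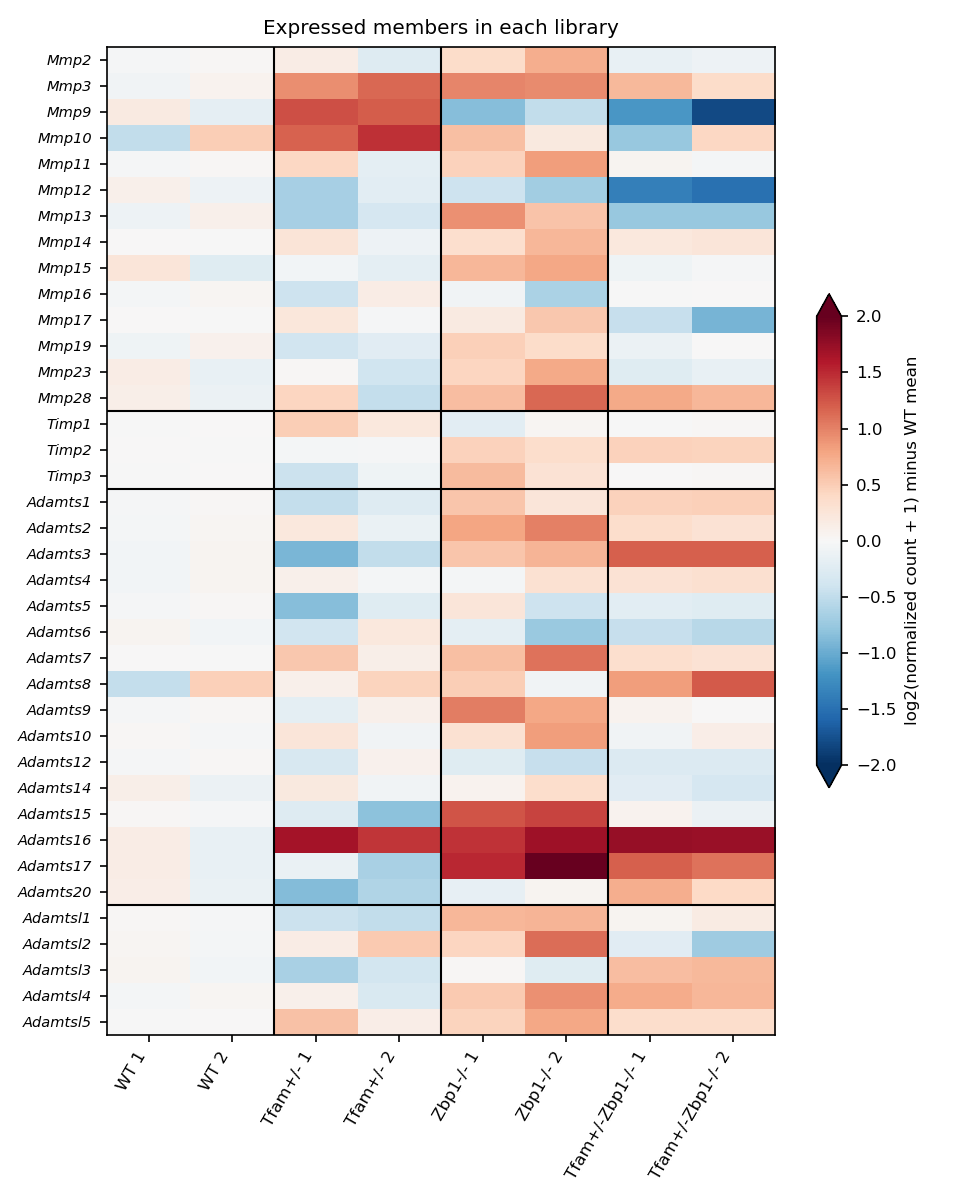
Log2(normalized count + 1) minus the WT mean for the 38 expressed members (rows, by family) in each of the 8 libraries (columns); red is above and blue below the WT mean. Most rows are red in the Zbp1-/- columns, and Mmp9 is red in Tfam+/- and blue in both groups lacking Zbp1.

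Among the stromelysins, enzymes that cut proteoglycans and laminin and activate other Mmp precursors, Mmp3 (chr9:7445822-7455975) was higher in each single mutant than in WT. It had normalized counts of 176 and 195 (WT), 355 and 414 (Tfam+/-), 368 and 357 (Zbp1-/-) and 291 and 240 (Tfam+/-Zbp1-/-). The 4 single-mutant libraries were all above the Tfam+/-Zbp1-/- libraries, which in turn were above WT. Mmp3 rose by 1.04 ± 0.15 (SE) on the log2 scale in Tfam+/- cells (limma, adjusted p 0.039) and by 0.96 ± 0.15 in Zbp1-/- cells (limma, adjusted p 0.044). The difference between Tfam+/-Zbp1-/- and WT was 0.51 ± 0.15 and did not pass (limma, adjusted p 0.21). The change with loss of a Tfam allele was -0.46 ± 0.15 without Zbp1, and the interaction was -1.50 ± 0.21 (limma, adjusted p 0.040). With the shared term these values were 1.11, 1.03, 0.51, -0.52 and -1.63, all called. The calls in Tfam+/- against WT and for the interaction were each lost without any 1 of the 8 libraries, at 0.93 to 1.15 and at -1.64 to -1.36. The call in Zbp1-/- against WT was lost without any 1 of the WT, Zbp1-/- or Tfam+/-Zbp1-/- libraries, at 0.89 to 1.03, and under TMM scaling (0.85, adjusted p 0.077).

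Mmp10, the other stromelysin of the same stretch, had normalized counts of 12.9 and 26.5 (WT), 43.1 and 52.7 (Tfam+/-), 28.6 and 21.4 (Zbp1-/-) and 10.6 and 24.997 (Tfam+/-Zbp1-/-). Both Tfam+/- libraries were above all 6 others, and the remaining genotypes overlapped. It was not called in any comparison from 8 libraries; the difference in Tfam+/- against WT was 1.32 ± 0.48 (limma, adjusted p 0.49), and 1.49 with the shared term (limma, adjusted p 0.021). Mmp11, a stromal member of the group expressed by fibroblasts, ranged from 572 to 1165 normalized counts over the 8 libraries and was not called from 8 libraries; the highest was Zbp1-/- replicate 2.

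Mmp13 (chr9:7272514-7283333), the fibrillar collagenase of mouse connective tissue and cartilage, fell when a Tfam allele was lost in Zbp1-/- cells. It had normalized counts of 243 and 280 (WT), 165 and 206 (Tfam+/-), 491 and 386 (Zbp1-/-) and 154 and 154 (Tfam+/-Zbp1-/-). Both Zbp1-/- libraries were the highest and both Tfam+/-Zbp1-/- libraries the lowest, with no overlap between genotypes. Its log2 change in Tfam+/-Zbp1-/- against Zbp1-/- was -1.49 ± 0.18 (limma, adjusted p 0.040), and -1.66 with the shared term. The call was lost without any 1 of the WT, Zbp1-/- or Tfam+/-Zbp1-/- libraries, at -1.67 to -1.32. In Tfam+/- against WT the difference was -0.50 ± 0.18 (limma, adjusted p 0.48), and the interaction of -1.0 ± 0.25 did not pass from 8 libraries (limma, adjusted p 0.16) but did with the term (-1.33, limma, adjusted p 1.2e-05). Of 6 chondrocyte markers, 5 were expressed and Matn1 was listed at 0; their summed level was 1247 to 1294 in WT, 945 to 1189 in Tfam+/-, 1677 to 1997 in Zbp1-/- and 1007 to 1027 in Tfam+/-Zbp1-/-. Most of that sum was Col2a1, which was lower in Tfam+/-Zbp1-/- (572 and 544) than in Zbp1-/- (1193 and 1591), as was Acan. Comp lay the other way (114 and 96.1 against 50.7 and 77.0), as did Col9a1 (13.2 and 19.6 against 12.3 and 12.7), and Sox9 overlapped. The part of these markers in the result for Mmp13 was not tested.

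The gelatinase Mmp9 (chr2:164940326-164955850), which cuts denatured collagen and basement membrane collagen and is abundant in macrophages and neutrophils, had the largest called change of any member. It had normalized counts of 48.0 and 37.3 (WT), 105 and 99.7 (Tfam+/-), 22.9 and 29.7 (Zbp1-/-) and 18.4 and 11.5 (Tfam+/-Zbp1-/-). Tfam+/- libraries were highest, those lacking Zbp1 were lowest, and no 2 genotypes overlapped. Mmp9 fell by 2.73 ± 0.28 on the log2 scale in Tfam+/-Zbp1-/- against Tfam+/- (limma, adjusted p 0.0044), and the change was -2.62 with the shared term. This call was lost without either Tfam+/-Zbp1-/- library (adjusted p 0.053 to 0.057), and the change ranged from -3.05 to -2.41 over all libraries left out. From WT, Tfam+/- differed by 1.26 ± 0.28 (limma, adjusted p 0.18) and Zbp1-/- by -0.68 ± 0.28 (limma, adjusted p 0.25). Tfam+/-Zbp1-/- differed from WT by -1.48 ± 0.28 (limma, adjusted p 0.066). The interaction was -2.05 ± 0.40 (limma, adjusted p 0.094), and -1.83 with the term (limma, adjusted p 0.0087).

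Mmp12 (chr9:7344397-7360461), the elastin-cutting protease of macrophages, had normalized counts of 73.9 and 63.6 (WT), 43.0 and 59.0 (Tfam+/-), 51.1 and 42.1 (Zbp1-/-) and 25.9 and 23.8 (Tfam+/-Zbp1-/-). Both WT libraries were above all others and both Tfam+/-Zbp1-/- libraries below all others, while the single mutants overlapped. It fell by 1.43 ± 0.23 on the log2 scale in Tfam+/-Zbp1-/- against WT (limma, adjusted p 0.040). That call was lost without any 1 of the WT, Zbp1-/- or Tfam+/-Zbp1-/- libraries, at -1.54 to -1.33. All 10 macrophage and leukocyte markers were expressed, with a summed level of 4480 to 4525 in WT, 5161 to 5658 in Tfam+/-, 2629 to 2876 in Zbp1-/- and 2300 to 2327 in Tfam+/-Zbp1-/-. This order of the sums is that of Mmp9. Most of each sum was Lyz2, and not every marker followed it: Cd14 was higher in Zbp1-/- (125 and 150) than in WT (101 and 112), and Ptprc was at 96.6 in Tfam+/- replicate 1, below WT. The part of these markers in the results for Mmp9 and Mmp12 was not tested. In these bulk libraries, fewer cells of a type and less RNA per cell cannot be told apart.

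Mmp14 and Mmp2, the most abundant proteases, were not called from 8 libraries. Mmp14 had normalized counts of 16890 and 16741 (WT), 20112 and 15719 (Tfam+/-), 21286 and 26726 (Zbp1-/-) and 19472 and 19914 (Tfam+/-Zbp1-/-). Mmp2, the gelatinase it activates, had 6220 and 6398 (WT), 6983 and 5271 (Tfam+/-), 8131 and 10455 (Zbp1-/-) and 5665 and 5900 (Tfam+/-Zbp1-/-). For both genes the 2 libraries that shift together were the highest of their genotype, and no comparison from 8 libraries called either gene. In Zbp1-/- against WT, Mmp2 differed by 0.55 ± 0.17 and Mmp14 by 0.50 ± 0.15 from 8 libraries (limma, adjusted p 0.173 and 0.171). With the shared term these values were 0.36 ± 0.03 and 0.33 ± 0.02 (limma, adjusted p 7.2e-08 and 3.3e-09). None of the 4 expressed membrane-type Mmp genes, nor of Mmp19, Mmp23 and Mmp28, was called from 8 libraries.

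Of the inhibitors, Timp2 (chr11:118301061-118355411), which also takes part in the activation of Mmp2 by Mmp14, was called higher in Tfam+/-Zbp1-/- than in Tfam+/-. It had normalized counts of 16519 and 16381 (WT), 15938 and 16126 (Tfam+/-), 22612 and 21071 (Zbp1-/-) and 22764 and 22419 (Tfam+/-Zbp1-/-). The 4 libraries lacking Zbp1 were all above the 4 libraries that carry it. It rose by 0.49 ± 0.08 on the log2 scale in Tfam+/-Zbp1-/- against Tfam+/- (limma, adjusted p 0.020), a call lost without either WT library, Tfam+/- replicate 1 or either Tfam+/-Zbp1-/- library (0.48 to 0.51). Against WT, the differences of 0.41 ± 0.08 in Zbp1-/- and 0.46 ± 0.08 in Tfam+/-Zbp1-/- did not pass (limma, adjusted p 0.082 and 0.0575). With the shared term the first was 0.44 ± 0.03 (limma, adjusted p 2.2e-10).

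Timp1, which is induced by many growth factors and cytokines, had normalized counts of 3052 and 3090 (WT), 4309 and 3542 (Tfam+/-), 2646 and 3160 (Zbp1-/-) and 3049 and 3127 (Tfam+/-Zbp1-/-). Both Tfam+/- libraries were the highest, and the other genotypes overlapped. Timp3, the matrix-bound inhibitor that also blocks ADAMTS enzymes, had 15072 and 15325 (WT), 11241 and 14269 (Tfam+/-), 23519 and 18510 (Zbp1-/-) and 15327 and 15405 (Tfam+/-Zbp1-/-). Zbp1-/- libraries were highest and Tfam+/- libraries lowest. Neither gene was called from 8 libraries in any comparison. From 8 libraries, Timp1 differed by 0.35 ± 0.13 in Tfam+/- against WT (limma, adjusted p 0.52). Timp3 differed by 0.46 ± 0.15 in Zbp1-/- against WT (limma, adjusted p 0.195). With the shared term these values were 0.21 ± 0.03 (limma, adjusted p 0.00027) and 0.63 ± 0.02 (limma, adjusted p 4.7e-13). The smaller SE leaves out the shift between the 2 libraries of each of these genotypes. The interaction for Timp3 was -0.18 ± 0.22 from 8 libraries and -0.52 ± 0.04 with the term (limma, adjusted p 6.3e-09). The per-kb sum of Timp1, Timp2 and Timp3 divided by that of Mmp2 and Mmp14 was 1.53 and 1.54 (WT), 1.36 and 1.73 (Tfam+/-), 1.53 and 1.13 (Zbp1-/-) and 1.63 and 1.59 (Tfam+/-Zbp1-/-). The lowest ratios belonged to the 2 libraries that shift together, and no test was made of this ratio.

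**Figure D4:**
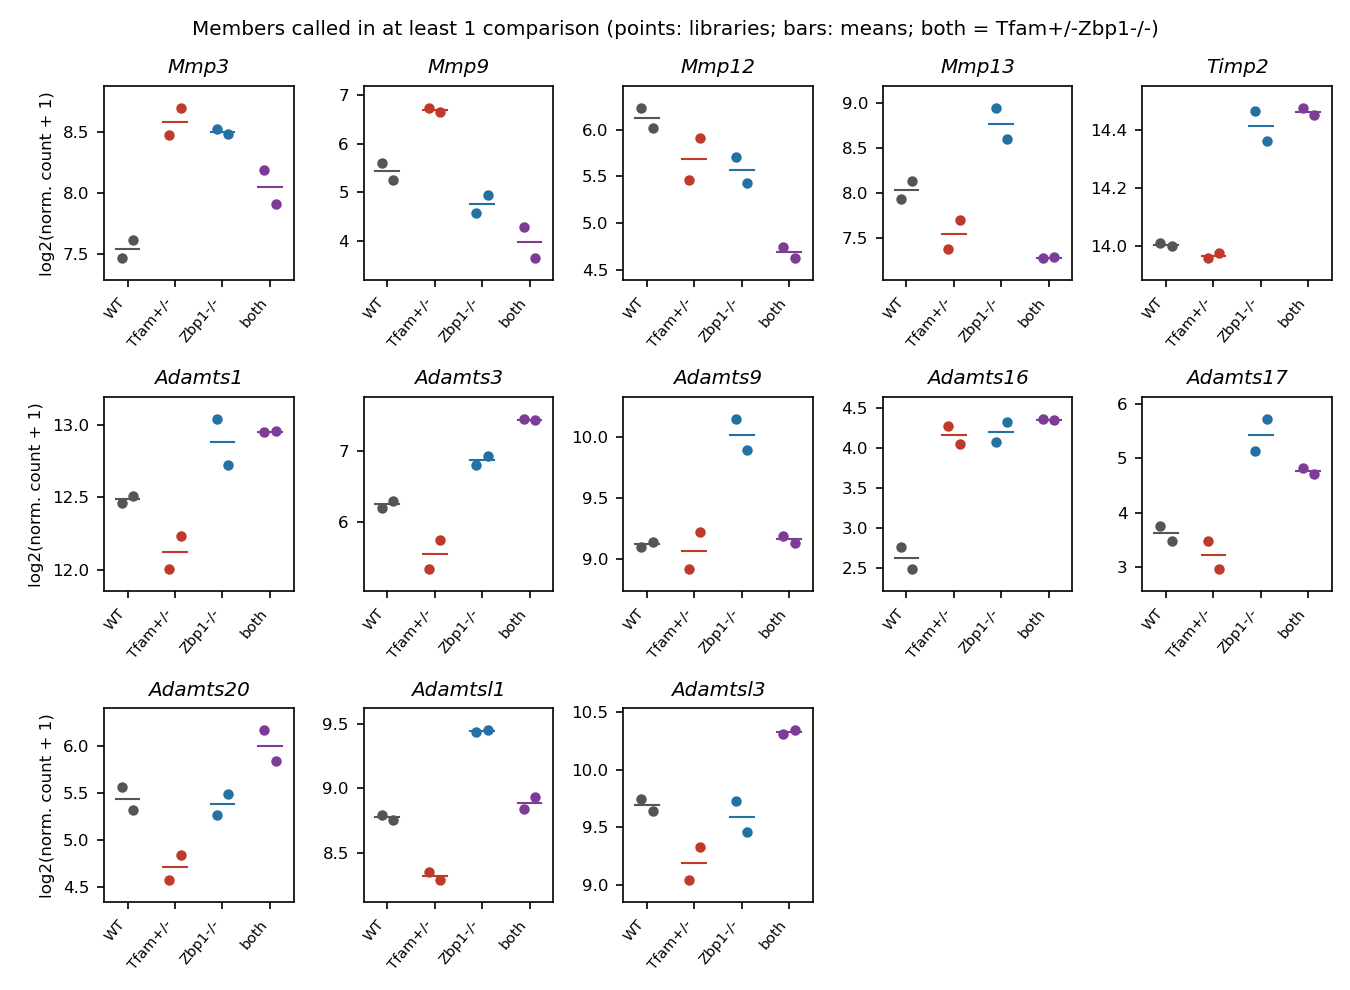
Log2(normalized count + 1) of the 13 members called in at least 1 comparison, by genotype; points are libraries, horizontal bars are means of 2, and "both" stands for Tfam+/-Zbp1-/-. Mmp3 is above WT in both single mutants, and Timp2, Adamts1 and Adamts3 are above WT in both groups lacking Zbp1.

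In the proteoglycan-cleaving ADAMTS group, 7 genes that cut versican and aggrecan, Adamts1 and Adamts20 rose in Tfam+/-Zbp1-/- against Tfam+/- and Adamts9 rose in Zbp1-/- against WT. Adamts1 (chr16:85793827-85803113) had normalized counts of 5639 and 5836 (WT), 4106 and 4812 (Tfam+/-), 8415 and 6760 (Zbp1-/-) and 7918 and 7962 (Tfam+/-Zbp1-/-). The libraries lacking Zbp1 were all above WT, and Tfam+/- was below it. The log2 change against Tfam+/- was 0.84 ± 0.13 (limma, adjusted p 0.017), lost without either WT library, Tfam+/- replicate 1 or either Tfam+/-Zbp1-/- library (0.72 to 0.95). Adamts20 (chr15:94268314-94432074) had 46.3 and 38.7 (WT), 22.8 and 27.7 (Tfam+/-), 37.5 and 43.9 (Zbp1-/-) and 70.6 and 56.3 (Tfam+/-Zbp1-/-). Tfam+/- was lowest and Tfam+/-Zbp1-/- highest, with WT and Zbp1-/- overlapping between them. Its change was 1.30 ± 0.22 (limma, adjusted p 0.022), lost without the same libraries as for Adamts1 (1.14 to 1.46).

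Adamts9 (chr6:92772699-92944450) had normalized counts of 545 and 563 (WT), 482 and 594 (Tfam+/-), 1129 and 948 (Zbp1-/-) and 581 and 560 (Tfam+/-Zbp1-/-). Only the Zbp1-/- libraries stood apart; the other 6 overlapped. It rose by 0.90 ± 0.14 on the log2 scale in Zbp1-/- against WT (limma, adjusted p 0.049) and by 1.04 with the shared term. The call was lost without any 1 of the WT, Zbp1-/- or Tfam+/-Zbp1-/- libraries (0.77 to 1.03) and under TMM scaling (0.78, adjusted p 0.089). Adamts15 showed a like order, with 55.3 and 53.6 (WT), 45.4 and 30.4 (Tfam+/-), 132 and 141 (Zbp1-/-) and 57.1 and 49.99 (Tfam+/-Zbp1-/-). Both Zbp1-/- libraries were above all others. Its difference in Zbp1-/- against WT was 1.31 ± 0.22 (limma, adjusted p 0.056), while that of Tfam+/-Zbp1-/- from Zbp1-/- was -1.34 ± 0.22 (limma, adjusted p 0.081), both called with the term (1.14 and -1.17).

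Adamts5, the aggrecanase of cartilage, had normalized counts of 4027 and 4176 (WT), 2276 and 3467 (Tfam+/-), 4844 and 3093 (Zbp1-/-) and 3529 and 3456 (Tfam+/-Zbp1-/-). The 2 libraries that shift together were the lowest of all, and the gene was not called from 8 libraries. Adamts8 had 7.80 and 16.004 (WT), 12.2 and 15.7 (Tfam+/-), 16.1 and 10.6 (Zbp1-/-) and 20.8 and 27.7 (Tfam+/-Zbp1-/-). Both Tfam+/-Zbp1-/- libraries were highest, at a difference of 0.83 ± 0.41 from Zbp1-/- that did not pass (limma, adjusted p 0.48).

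Adamts3 (chr5:89673841-89883668), a procollagen N-proteinase that also processes the lymphatic growth factor VEGF-C, rose in Tfam+/-Zbp1-/- cells against both WT and Tfam+/-. It had normalized counts of 72.2 and 77.4 (WT), 39.2 and 52.6 (Tfam+/-), 110 and 121 (Zbp1-/-) and 173 and 172 (Tfam+/-Zbp1-/-). The 4 genotypes did not overlap, with Tfam+/- lowest and Tfam+/-Zbp1-/- highest. It rose by 1.19 ± 0.18 on the log2 scale against WT (limma, adjusted p 0.036) and by 1.90 ± 0.18 against Tfam+/- (limma, adjusted p 0.0037). The call against WT was lost without any 1 of the WT, Zbp1-/- or Tfam+/-Zbp1-/- libraries (1.14 to 1.24), and that against Tfam+/- without either Tfam+/-Zbp1-/- library (1.69 to 2.11). The interaction was 1.28 ± 0.25 (limma, adjusted p 0.095), and 1.14 with the shared term (limma, adjusted p 0.0078). The other procollagen N-proteinases, Adamts2 and Adamts14, were not called from 8 libraries; Adamts2 was nearest, with 737 and 775 in WT and 1309 and 1525 in Zbp1-/- (0.90 ± 0.15, limma, adjusted p 0.051).

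Adamts16 (chr13:70727798-70841845) had normalized counts of 5.80 and 4.59 (WT), 18.5 and 15.6 (Tfam+/-), 15.9 and 19.0 (Zbp1-/-) and 19.5 and 19.4 (Tfam+/-Zbp1-/-). All 6 mutant libraries were above both WT libraries, and the mutants lay close together. It rose by 1.73 ± 0.28 on the log2 scale in Tfam+/-Zbp1-/- against WT (limma, adjusted p 0.041). For Tfam+/- and Zbp1-/- against WT the differences were 1.54 ± 0.28 and 1.57 ± 0.28 (limma, adjusted p 0.088 and 0.062), and both were called with the shared term (1.42 and 1.46). The call was lost without any 1 library other than Tfam+/- replicate 2 (1.59 to 1.87) and under TMM scaling (1.63, adjusted p 0.0503).

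Adamts17 (chr7:66839699-67153171), which acts on the fibrillin matrix, had normalized counts of 12.6 and 10.2 (WT), 10.3 and 6.85 (Tfam+/-), 34.1 and 51.3 (Zbp1-/-) and 27.2 and 25.3 (Tfam+/-Zbp1-/-). The 4 libraries lacking Zbp1 were above the 4 others. Its log2 change was 1.53 ± 0.32 in Tfam+/-Zbp1-/- against Tfam+/- (limma, adjusted p 0.041), lost without any 1 of the WT, Tfam+/- or Tfam+/-Zbp1-/- libraries (1.27 to 1.79) and under TMM scaling (1.43, adjusted p 0.053). The difference of 1.80 ± 0.32 in Zbp1-/- against WT did not pass (limma, adjusted p 0.063). Adamts12, which cuts the cartilage protein COMP, ranged from 1222 to 1791 normalized counts and was not called from 8 libraries, nor was Adamts7 of the same role.

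Among the ADAMTS-like genes, whose products bind the extracellular matrix, Adamtsl1 (chr4:85513852-86428390) had normalized counts of 443 and 431 (WT), 325 and 312 (Tfam+/-), 694 and 698 (Zbp1-/-) and 456 and 489 (Tfam+/-Zbp1-/-). The 4 genotypes did not overlap. It rose by 0.67 ± 0.10 on the log2 scale in Zbp1-/- against WT (limma, adjusted p 0.045) and by 0.57 ± 0.10 in Tfam+/-Zbp1-/- against Tfam+/- (limma, adjusted p 0.028). The interaction was -0.10 ± 0.15 (limma, adjusted p 0.65). The first call was lost without any 1 of the WT, Zbp1-/- or Tfam+/-Zbp1-/- libraries (0.65 to 0.69) and the second without any 1 of the WT, Tfam+/- or Tfam+/-Zbp1-/- libraries (0.52 to 0.62). TMM scaling gave 0.55 (adjusted p 0.097) and 0.46 (adjusted p 0.060).

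Adamtsl3 (chr7:82335399-82614450) had normalized counts of 860 and 798 (WT), 525 and 642 (Tfam+/-), 846 and 702 (Zbp1-/-) and 1271 and 1298 (Tfam+/-Zbp1-/-). Both Tfam+/-Zbp1-/- libraries were above all others and both Tfam+/- libraries below them. Its log2 change was 1.14 ± 0.15 in Tfam+/-Zbp1-/- against Tfam+/- (limma, adjusted p 0.0077), lost without either Tfam+/-Zbp1-/- library (1.00 to 1.29). The interaction of 1.25 ± 0.21 did not pass from 8 libraries (limma, adjusted p 0.062) and was 0.97 ± 0.09 with the shared term (limma, adjusted p 3.6e-07). Adamtsl5 had 518 and 523 (WT), 782 and 570 (Tfam+/-), 712 and 887 (Zbp1-/-) and 665 and 662 (Tfam+/-Zbp1-/-). Every mutant library was above WT, and it was not called from 8 libraries.

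Losing a Tfam allele can be compared with and without Zbp1 over libraries that are not shared. The comparisons are still not independent, as each includes a library that shifts together with a library of the other. That shift enters Tfam+/- against WT with a plus sign and Tfam+/-Zbp1-/- against Zbp1-/- with a minus sign. Alone it would give changes of opposite sign. Mmp3, Mmp9 and Mmp10 were above WT in Tfam+/- cells (1.04 ± 0.15, 1.26 ± 0.28 and 1.32 ± 0.48). Their means were below Zbp1-/- in Tfam+/-Zbp1-/- cells (-0.46 ± 0.15, -0.80 ± 0.28 and -0.57 ± 0.48). For Mmp10 the libraries of these 2 genotypes overlapped (limma, adjusted p 0.61). Adamts3, Adamts20 and Adamtsl3 lay the other way, at -0.71, -0.73 and -0.51 with Zbp1 and 0.57, 0.62 and 0.74 without it. Of all these changes, only that of Mmp3 in Tfam+/- against WT was called from 8 libraries. These 6 genes were chosen after their values were seen, for changes of opposite sign, which is what the interaction measures. Their interaction calls are therefore no independent support. Mmp3 was called from 8 libraries, beside 0.663% of all genes, and all 6 were called with the shared term, beside 16.9%. The interactions of Mmp3, Mmp9 and Mmp10 were -1.5, -2.05 and -1.88 from 8 libraries and -1.63, -1.83 and -2.23 with the term. Those of Adamts3, Adamts20 and Adamtsl3 were 1.28, 1.35 and 1.25, and 1.14, 1.33 and 0.97 with the term.

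**Figure D5:**
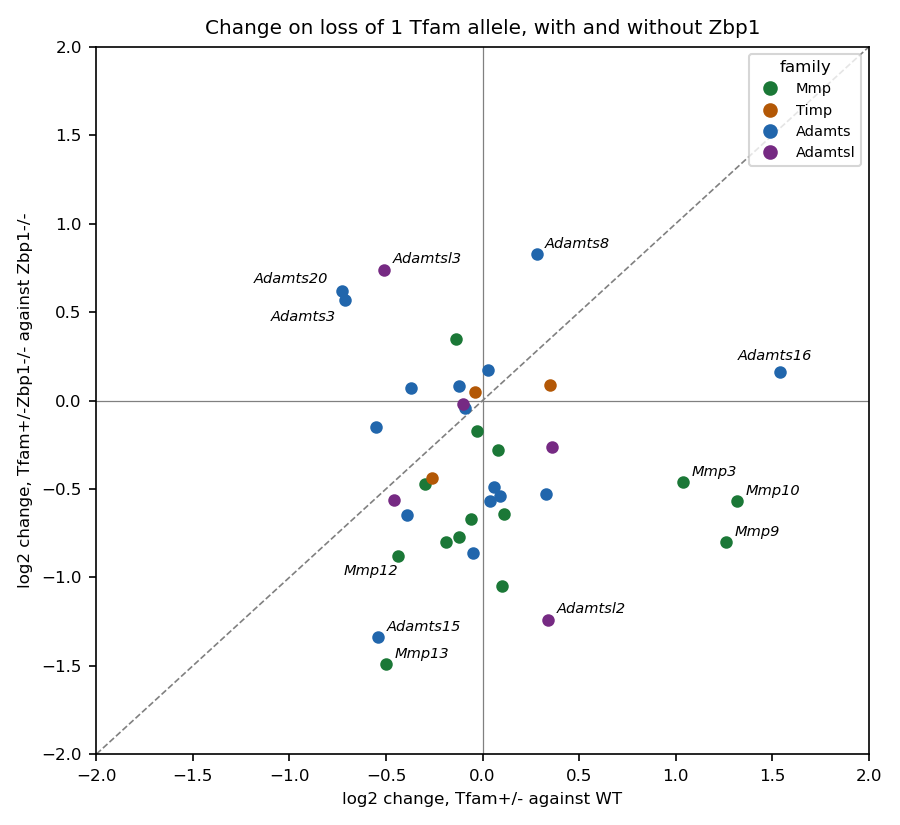
Log2 change of the 38 expressed members on loss of a Tfam allele with Zbp1 present (x axis, Tfam+/- against WT) and absent (y axis, Tfam+/-Zbp1-/- against Zbp1-/-), coloured by family; the dashed line marks equal change. Mmp3, Mmp9 and Mmp10 lie at the lower right and Adamts3, Adamts20 and Adamtsl3 at the upper left.

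Other genes of matrix proteolysis were read from lists by role. Spint2, an inhibitor of serine proteases at the cell surface, had normalized counts of 75.9 and 79.5 (WT), 93.9 and 93.3 (Tfam+/-), 109 and 99.6 (Zbp1-/-) and 174 and 156 (Tfam+/-Zbp1-/-). Both Tfam+/-Zbp1-/- libraries were above all others, and it rose there by 1.08 ± 0.14 on the log2 scale against WT (limma, adjusted p 0.025) and by 0.81 ± 0.14 against Tfam+/- (limma, adjusted p 0.023). Of 19 tested proteases of the plasminogen system and other classes, Tll1, a procollagen C-proteinase, fell in Zbp1-/- against WT (-1.14 ± 0.14), in Tfam+/-Zbp1-/- against WT (-0.97 ± 0.14) and against Tfam+/- (-1.09 ± 0.14). In the last comparison 2 of the 19 rose and 3 fell, beside 3.32% of all genes higher and 2.32% lower. Among them were the serine protease Htra3 (1.22 ± 0.17) and the lysosomal cathepsin Ctss (-1.23 ± 0.16). Of 10 tested ADAM proteases, Adam23 alone was called from 8 libraries, lower in Tfam+/-Zbp1-/- than in Zbp1-/- (-0.78 ± 0.11), where 0.415% of all genes were called. With the shared term other ADAM genes were called too.

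Of 14 tested matrix substrates, 6 rose and none fell in Tfam+/-Zbp1-/- against Tfam+/-, beside 3.32% of all genes higher and 2.32% lower. Comp (3.07 ± 0.37), Eln (1.93 ± 0.21), Lum (1.80 ± 0.30) and Fbn2 (1.42 ± 0.08) were the 4 with the largest rise. The median of that list was 0.35 against 0.14 over all genes. Fbn2 rose also in Zbp1-/- against WT (0.91 ± 0.08), and Eln and Fbn2 in Tfam+/-Zbp1-/- against WT. None of the 14 was called by limma in Tfam+/- against WT, for Tfam+/-Zbp1-/- against Zbp1-/- or for the interaction, where 6, 5 and 6 had an unadjusted p under 0.05. Of 13 tested Fos, Jun, Ets, Etv and Runx genes, regulators that act on Mmp promoters, none was called in any of the 6 comparisons from 8 libraries (limma), and 4, 1, 1, 4, 0 and 1 had an unadjusted p under 0.05. Of the 13, 5, 6, 6, 7, 4 and 3 were called with the shared term (38.5%, 46.2%, 46.2%, 53.8%, 30.8% and 23.1%), beside 15.6%, 35.6%, 42.5%, 45.6%, 23.8% and 16.9% of all genes. Under TMM scaling Etv4 was called lower in Tfam+/-Zbp1-/- than in Tfam+/-. Apart from Fbn2 in Tfam+/-Zbp1-/- against Tfam+/-, each call from 8 libraries named above for related genes was lost without either Tfam+/-Zbp1-/- library. Those against WT, and those of Spint2 and Lum against Tfam+/-, were also lost without either WT library, and that of Adam23 without any 1 of the 8. The call of Eln against WT was lost under TMM scaling too (1.11, limma, adjusted p 0.065). Fbn1, another of the 6 substrates called higher against Tfam+/- (0.36 ± 0.08), lost its call under TMM scaling (0.25, limma, adjusted p 0.14) and without any 1 of 7 libraries.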

How the data were processed

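RNA of 8 libraries of mouse embryonic fibroblasts was sequenced. Per the series' design text, the authors ran STAR through RNAseq Alignment against mm10 (RefSeq genes), then RNA-seq Differential Expression; the submitters' processing notes name STAR 2.6.1a and Salmon. As deposited by the authors, each gene has a normalized count, a signal that is not whole. No source used here gives how reads were counted, whether strand was used or how libraries were scaled, so values of genes that overlap another gene are uncertain, among them Timp2 (Cep295nl), Timp1 (Syn1), Timp3 (Syn3), Mmp19 (Tmem198b), Mmp23 (Mib2) and Adamts9 (a long noncoding RNA). Low values were whole multiples of a library's most frequent value, within 0.01, for 22.2% to 35.0%, so reads were not recovered and no count model was used. Library totals are the only measure of depth, 16752835 to 18303036.

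Each library was grouped by its genotype label. From these values limma 3.58.1 (R 4.3.3; eBayes with trend) was fitted to log2(normalized count + 1) for 13267 genes with a mean of at least 10, the 4 genotypes together, two-sided, with Benjamini-Hochberg adjustment over all genes; a fold change on this scale understates the change of low genes. The script was tested on simulated data. Alternatives were another pseudocount (5), no filter, scaling to a trimmed mean of M-values (TMM), a replicate block, the shared term, 6 libraries and leaving out each library. Lengths come from GENCODE vM21, and promoters and coordinates from RefSeq (GRCm38.p6), with 36 of 51 members in the promoter table. Named were the called members, the 3 highest of each family and the 2 largest rises and falls of each comparison, and at most 3 called genes of a related list in a comparison (more for the matrix substrates). The members, lists and markers were chosen with earlier results of these data known. The other marker lists were osteoblast (1 of 6 expressed), skeletal muscle (2 of 6), endothelial (3 of 6) and epithelial (3 of 6). Some genes of the related lists are not reported here.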

Additional observations from a re-analysis of the deposited data

Results flagged for a closer look

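The change of Mmp3 with loss of a Tfam allele differed between cells with and without Zbp1. The interaction was -1.50 on the log2 scale, from a rise of 1.04 in Tfam+/- against WT to a difference of -0.46 in Tfam+/-Zbp1-/- against Zbp1-/- (limma, adjusted p 0.040). With the term for the 2 libraries that shift together it was -1.63 (limma, adjusted p 1.5e-06). The fit of the 6 others gave the same -1.63, an estimate that is necessarily equal. The term was built from these same libraries, and the 6 hold 1 library each of Tfam+/- and Zbp1-/-. Neither fit is therefore independent support. Without the term, the call from 8 libraries was lost when any 1 of them was left out (-1.64 to -1.36).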

How the results depend on the processing

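None of the 34 named changes turned its sign under any setting, and a pseudocount of 5 kept all 17 called values. With no filter on low values, 0 members were called in all comparisons but Tfam+/-Zbp1-/- against Tfam+/- (limma; 12, 23, 14, 22 and 17 at an unadjusted p under 0.05), and 7 of the 17 values kept their call; more genes were tested. TMM scaling left 0 in Zbp1-/- against WT (24 unadjusted) and kept 11 of 17; in Tfam+/-Zbp1-/- against Tfam+/- the calls went from 7 higher and 1 lower to 5 and 2. The replicate block left 3 members, Mmp9, Adamts3 and Adamtsl3, in Tfam+/-Zbp1-/- against Tfam+/- and 0 in the other 5 comparisons (limma; 9, 23, 13, 20 and 14 unadjusted). The numbers share no origin in the labels, and same-numbered libraries did not deviate together (r -0.698 to 0.0591 between genotypes). Crossing the numbers, chosen after seeing the data, gave 5 in Zbp1-/- against WT. With the shared term the counts were 18, 27, 24, 26, 23 and 18, and in 6 libraries 15, 26, 25, 26, 24 and 18, in the order of the report; the cause was not tested. Leaving out each library gave 0 to 0 members in Tfam+/- against WT, 0 to 6 in Zbp1-/- against WT, 0 to 3 in Tfam+/-Zbp1-/- against WT, 0 to 9 against Tfam+/-, 0 to 2 against Zbp1-/- and 0 to 1 for the interaction, where the member called without Tfam+/- replicate 2 was not Mmp3. Without either Tfam+/-Zbp1-/- library 0 of the 17 values kept their call, without either WT library 3, and without the others 8 to 13. With 2 libraries per genotype and unknown read depth, low members such as Adamts16 are the least certain.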

Other observations

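Adamts19, below the level needed for the test, was at 7.63 and 8.90 normalized counts in Tfam+/-Zbp1-/- and at 0 to 4.17 in the other 6 libraries. Mmp1b, a rodent collagenase, was at 3.61 to 8.27 in all 8 libraries, and Mmp7, the epithelial matrilysin, was above 0 in 1 library at 0.995.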
